A study of Homo sapiens with 9 samples.

Results

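The SOX transcription factors were followed in cultures that were taken from the human embryonic stem cell line H1 towards blood. Rows of the count table were taken by gene symbol for SOX2, SOX4, SOX5, SOX6, SOX7, SOX9, SOX11, SOX12, SOX17 and SOX18, which gave 10 of 21229 genes. Strand-specific RNA libraries came from 3 groups of 3 samples: control cells carrying the surface antigen CD38, control cells carrying CD90 (encoded by THY1), and CD90+ cells in which the transcription factor GATA2 was overexpressed. All 3 groups share the H1 line, and no CD38+ cells with overexpression were analysed here. The sources used here do not state how GATA2 was delivered or whether each library had its own culture, so the p-values measure the spread between these samples, which may be technical.

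SOX proteins bind DNA through a high-mobility-group box related to that of SRY, bend the helix and usually act with a partner factor. The family is divided into lettered groups by the sequence of the box. SOX2 of group B is a factor of pluripotent and neural stem cells, and group C (SOX4, SOX11 and SOX12) acts in many progenitors, SOX4 also in B-cell precursors. Group D (SOX5 and SOX6) lacks an activation domain of its own; SOX6 takes part in the silencing of embryonic globin genes in red cell precursors, and both work with SOX9 of group E in cartilage. Group F (SOX7, SOX17 and SOX18) acts in endothelium, and SOX17 also in endoderm and in the haemogenic endothelium from which blood cells emerge.

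Start-site windows of 250 bases were matched in RefSeq (GRCh38.p14) for SOX2, SOX4, SOX5, SOX6 and SOX12. Those of SOX2, SOX5 and SOX12 are shown because each held a motif match and lay mostly outside the exons of its GENCODE 29 models. The windows shown thus hold matches by choice. Within CD90+ cells, SOX2 and SOX5 were lower with GATA2 overexpression and SOX12 was higher (values below). Only bases outside every exon of the GENCODE 29 models are given, 5′ to 3′ on the gene's strand. Capitals mark matches on either strand to any of 5 motifs. These were CCAAT, bound by NF-Y, and GATAA, the core of GATA factor sites. ACAAAG was searched as a SOX-like site, and AACAAT as another. The last was ATGCAAAT, the octamer of POU factors.
SOX2, chr3:181711675-181711923, plus strand: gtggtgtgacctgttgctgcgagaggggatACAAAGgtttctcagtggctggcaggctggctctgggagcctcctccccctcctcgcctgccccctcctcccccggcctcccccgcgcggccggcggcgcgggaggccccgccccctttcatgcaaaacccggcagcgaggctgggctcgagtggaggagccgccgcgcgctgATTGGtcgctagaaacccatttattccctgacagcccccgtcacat
SOX5, chr12:24562545-24562741, minus strand: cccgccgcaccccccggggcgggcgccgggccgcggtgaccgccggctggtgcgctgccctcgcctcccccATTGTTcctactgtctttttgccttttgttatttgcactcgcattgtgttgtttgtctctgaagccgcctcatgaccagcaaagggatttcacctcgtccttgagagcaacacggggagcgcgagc
SOX12, chr20:325302-325551, plus strand: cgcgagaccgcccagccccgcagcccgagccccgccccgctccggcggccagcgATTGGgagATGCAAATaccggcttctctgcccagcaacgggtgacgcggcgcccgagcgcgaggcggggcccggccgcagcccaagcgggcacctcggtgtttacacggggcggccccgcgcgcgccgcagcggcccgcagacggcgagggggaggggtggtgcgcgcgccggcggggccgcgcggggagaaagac

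CCAAT was present in 32.0% of the 35116 windows of all genes, ACAAAG in 13.7%, AACAAT in 8.98% and ATGCAAAT in 1.63%. The window of SOX4, on chromosome 6 from 21593501 to 21593750, held 4 matches to CCAAT, a number reached by 0.874% of windows, and a GATAA at positions -31 to -27 from the start. GATAA occurred in 20.4% of windows. That window lies inside the exon of the GENCODE 29 model of SOX4, whose start is further upstream, and its sequence is not shown. The first of the 5 SOX6 windows held no match. The longer GATA motif known as WGATAR, present in 22.3% of all windows on either strand, was in none of these 5. Matches are letters in a window and were not tested as binding sites.

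Counts per library totalled 37500192 to 47261093, and a single read was worth 0.0181 to 0.0272 CPM, the unit of depth-corrected levels used below (counts per 1e6 reads after scaling by TMM factors). The low-count filter kept 16232 genes for testing. GATA2 stood at 551, 576 and 581 CPM in the CD38+ control libraries, at 86.6, 89.5 and 85.9 CPM in CD90+ control and at 363, 388 and 377 CPM with overexpression. It was thus 4.31-fold higher with overexpression than in CD90+ control cells, but below the CD38+ level, and these counts hold no separate value for introduced GATA2. THY1 had 0 counts in CD38+ control cells and 4.43 ± 0.632 CPM (SD, n = 3) in CD90+ control cells, and CD38 was at 122 ± 2.40 against 4.37 ± 0.382 CPM, so both sort markers followed the labels. Levels are given below as CPM with SD and n = 3, and "called" means that edgeR's quasi-likelihood test gave a p under 0.05 after Benjamini-Hochberg adjustment over all tested genes.

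All 10 SOX genes passed the filter, but SOX2, SOX5, SOX9, SOX11 and SOX18 had fewer than 10 counts in each CD38+ library and passed through the CD90+ groups alone. In CD90+ control against CD38+ control cells, 9 of the 10 were called higher and SOX12 was not called. Of all tested genes 80.4% were called, 41.1% higher and 39.3% lower. DESeq2 gave the same count of SOX genes. Against CD90+ control cells, GATA2 overexpression came with 3 SOX genes called higher (SOX4, SOX12 and SOX18) and 6 called lower (SOX2, SOX5, SOX6, SOX9, SOX11 and SOX17), beside 38.0% and 39.6% of all tested genes (77.6% in either direction). In GATA2 overexpression against CD38+ control cells all 10 were called higher, beside 43.3% of all genes higher, 39.9% lower and 83.2% in either direction. The comparisons share groups, so they are not independent of each other. In bulk RNA a smaller share of cells of a type and less RNA per cell cannot be told apart.

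The split of calls over all genes depended on the scaling. With library size only in place of TMM factors, 71.2% of calls were on the higher side in CD90+ against CD38+ control cells, against 51.2%, and the median of all genes moved by 0.41 on the log2 scale. For GATA2 overexpression against CD90+ control the share was 35.5% against 49.0%, with a shift of -0.25, and against CD38+ control the shift was 0.16.

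**Figure D1:**
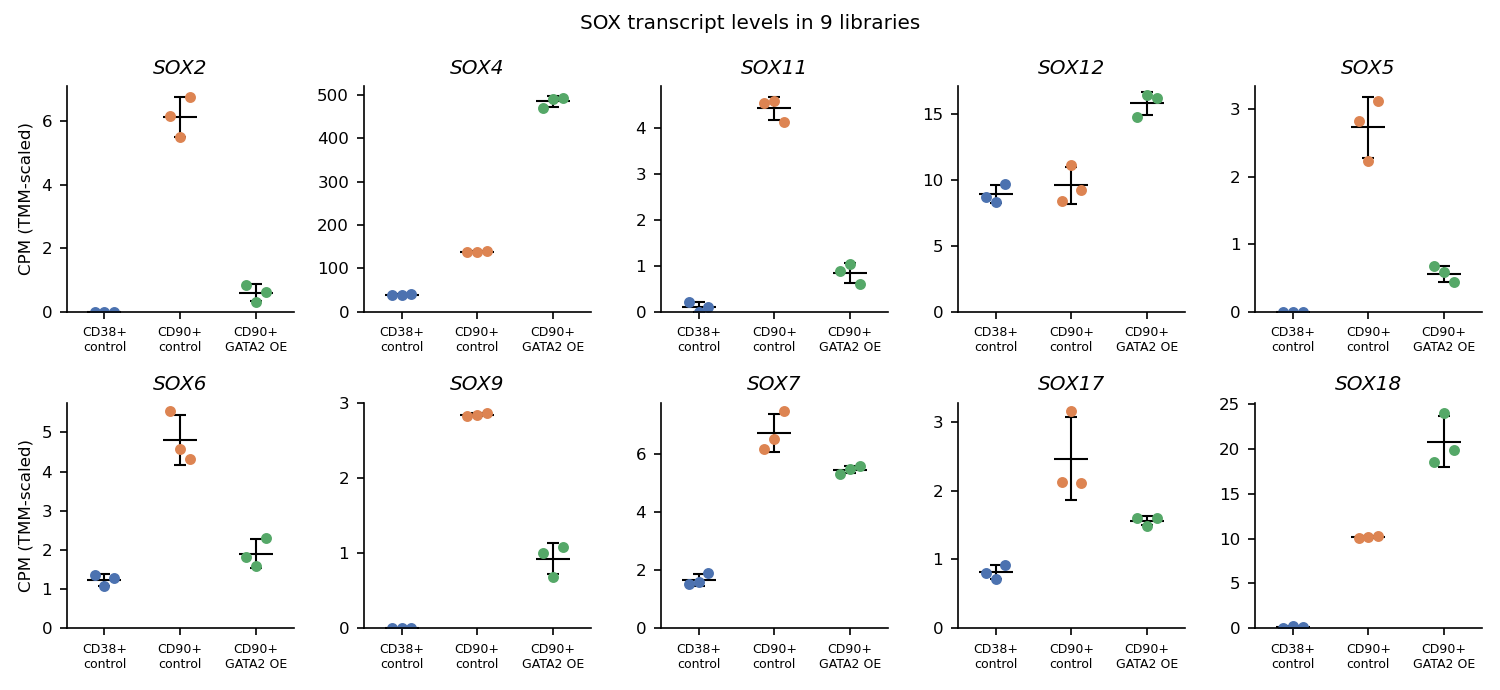
Levels of the 10 SOX genes (y axis, CPM scaled by TMM factors, linear from 0, a separate scale for each gene) in the 9 libraries, by group (x axis; GATA2 OE is GATA2 overexpression). Points are libraries, and horizontal bars with whiskers are means ± SD. SOX4, SOX12 and SOX18 are highest with GATA2 overexpression, and the other 7 genes are highest in CD90+ control cells.

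Group C held the most abundant member. SOX4 (ENSG00000124766.6, chromosome 6, 21592768 to 21598619, plus strand, GRCh38, a single exon) was at 38.0, 38.8 and 41.5 CPM in the CD38+ control libraries. In CD90+ control cells it was at 138, 138 and 139 CPM, and with GATA2 overexpression at 470, 491 and 493 CPM. The 3 groups did not overlap, and the levels were ordered CD38+ control, CD90+ control, GATA2 overexpression. SOX4 was 3.51-fold higher in CD90+ than in CD38+ control cells (log2 fold change 1.81, SE 0.0331, adjusted p = 7.94e-18). With GATA2 overexpression it was a further 3.498-fold higher than in CD90+ control cells (log2 1.81, SE 0.0291, adjusted p = 3.70e-18), and 12.3-fold higher than in CD38+ control cells.

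SOX12 (ENSG00000177732.8, chromosome 20, 325595 to 330224, plus strand, a single exon) was at 8.72, 8.31 and 9.64 CPM in CD38+ control and at 8.39, 11.1 and 9.24 CPM in CD90+ control libraries, which overlapped. Their difference was 0.11 on the log2 scale, with an interval of -0.11 to 0.32 and an adjusted p of 0.379. Scaling by library size only gave a log2 difference of 0.52 and an adjusted p of 0.00039, so this comparison depends on the scaling. Libraries with GATA2 overexpression had 14.8, 16.4 and 16.2 CPM, above all other libraries, and SOX12 rose 1.65-fold over CD90+ control cells (adjusted p = 1.13e-05). NRSN2-AS1 is an antisense gene whose span overlaps SOX12 but none of whose exons does. It rose 2.20-fold in the same comparison, but was 3.48-fold lower in CD90+ than in CD38+ control cells. Use of strand in the counting is not given.

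SOX11 (ENSG00000176887.6, chromosome 2, 5692667 to 5701385, plus strand) differed from its relatives in where it was highest. It had 8, 0 and 4 counts in CD38+ control libraries, 231, 253 and 205 in CD90+ control and 34, 39 and 22 with GATA2 overexpression. As levels these were 0.104 ± 0.106, 4.42 ± 0.253 and 0.837 ± 0.221 CPM, with no overlap between groups. It was 41.2-fold higher in CD90+ than in CD38+ control cells (adjusted p = 1.49e-09), a fold that became 81.0 without CD38+ control replicate 1, which held most of the 12 counts of that group. With GATA2 overexpression SOX11 fell 5.26-fold (log2 -2.40, SE 0.290, adjusted p = 9.77e-07).

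Group F, the endothelial group, split between SOX18 and its relatives. SOX18 (ENSG00000203883.6, chromosome 20, 64047582 to 64049641, minus strand) had 2, 9 and 4 counts in the CD38+ control libraries. It was at 10.1, 10.1 and 10.3 CPM in CD90+ control cells and at 18.6, 24.0 and 19.9 CPM with GATA2 overexpression. No library of a group overlapped with another group. SOX18 was 76.4-fold higher in CD90+ than in CD38+ control cells (adjusted p = 1.08e-13), or 127-fold without CD38+ control replicate 2, which held 9 of the 15 counts. With GATA2 overexpression it was 2.04-fold higher than in CD90+ control cells (log2 1.03, SE 0.127, adjusted p = 1.21e-06).

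SOX7 (ENSG00000171056.7, chromosome 8, 10723768 to 10730512, minus strand) was at 1.52, 1.60 and 1.90 CPM in CD38+ control, at 6.19, 6.51 and 7.47 CPM in CD90+ control and at 5.32, 5.48 and 5.57 CPM in GATA2 overexpression libraries. It rose 4.005-fold from CD38+ to CD90+ control cells (adjusted p = 1.37e-09). Between the CD90+ groups the libraries did not overlap and the log2 difference was -0.30 (interval -0.56 to -0.04), yet the adjusted p was 0.0507 and the gene was not called. The adjusted p ranged from 0.00139 to 0.209 over 16 alternatives, 6 of which called it lower. PINX1, whose exons overlap those of SOX7 on the same strand over 1268 bases, was at 6.09 ± 0.391, 9.96 ± 0.773 and 10.8 ± 0.221 CPM in CD38+ control, CD90+ control and GATA2 overexpression cells. Reads from the shared part cannot be assigned between these genes with certainty.

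SOX17 (ENSG00000164736.5, chromosome 8, 54457935 to 54460888, plus strand) was low in all groups, at 0.798, 0.722 and 0.926 CPM in CD38+ control, 2.12, 3.16 and 2.11 CPM in CD90+ control and 1.60, 1.48 and 1.60 CPM with GATA2 overexpression. The groups did not overlap, and CD90+ control replicate 2 was high within its group. SOX17 rose 3.02-fold from CD38+ to CD90+ control cells (adjusted p = 5.60e-06). It fell 1.58-fold with GATA2 overexpression (adjusted p = 0.00917), but leaving out CD90+ control replicate 2 gave an adjusted p of 0.0960, which is not called.

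Ratios of counts between genes within a library do not depend on scaling. SOX18 was counted 0.0351 to 0.15 times as often as SOX7 in CD38+ control libraries, 1.38 to 1.63 times as often in CD90+ control and 3.49 to 4.37 times as often with GATA2 overexpression. Relative to SOX17 the SOX18 ratio was 3.21 to 4.89 in CD90+ control and 11.6 to 16.2 with GATA2 overexpression. SOX7 to SOX17 was 2.06 to 3.53 in CD90+ control and 3.32 to 3.70 with GATA2 overexpression, ranges that overlapped. Within group C, SOX4 to SOX12 was 4.30 to 4.67 in CD38+ control, 12.4 to 16.5 in CD90+ control and 29.99 to 31.9 with GATA2 overexpression. An exact two-sided permutation test of 3 against 3 libraries cannot go below p = 0.1, which the SOX18 to SOX7, SOX18 to SOX17 and SOX4 to SOX12 ratios reached in each comparison (0.117 after Benjamini-Hochberg adjustment over 14 tests of ratios). For SOX7 to SOX17 between the CD90+ groups the exact p was 0.3.

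**Figure D2:**
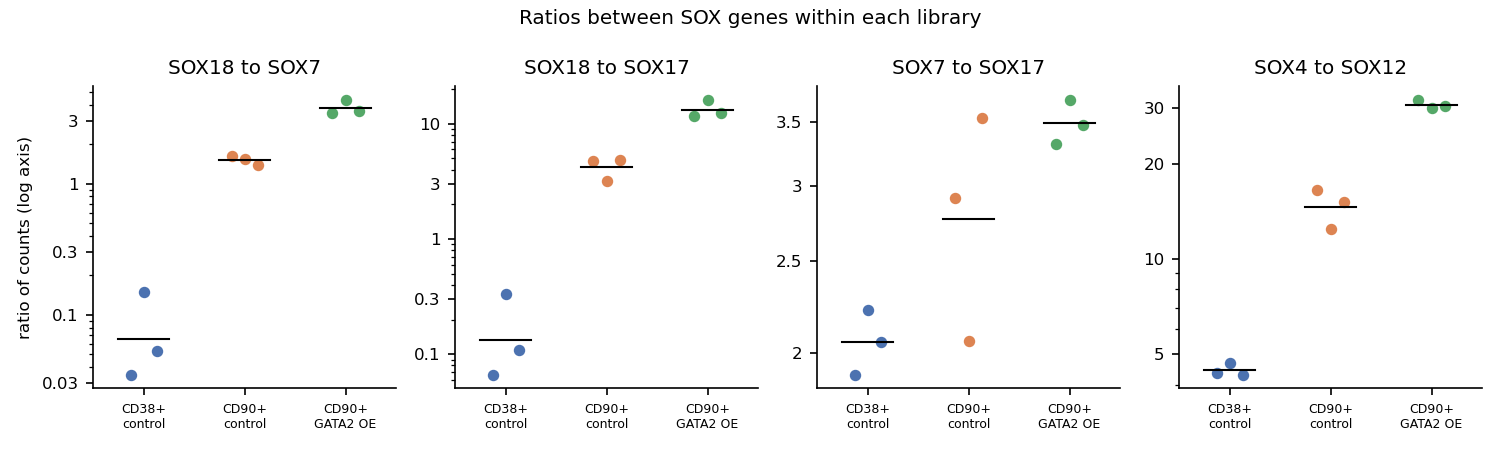
Ratio of counts (y axis, log scale) between named SOX genes within each of the 9 libraries, by group (x axis; GATA2 OE is GATA2 overexpression). Points are libraries and lines are geometric means. SOX18 to SOX7, SOX18 to SOX17 and SOX4 to SOX12 step up from group to group without overlap, whereas SOX7 to SOX17 overlaps between the CD90+ groups.

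SOX2, SOX5 and SOX9 had 0 counts in all 3 CD38+ control libraries, which allows up to 0.0261 CPM in that group (3 counts over the group). SOX2 (ENSG00000181449.3, chromosome 3, 181711924 to 181714436, plus strand, a single exon) had 314, 303 and 336 counts in CD90+ control libraries and 33, 12 and 23 with GATA2 overexpression. This was 6.14 ± 0.635 against 0.599 ± 0.268 CPM, with all overexpression libraries far below the controls. Its CD90+ control level was at least 235-fold above CD38+ control cells. Overexpression of GATA2 came with a 10.2-fold fall (log2 -3.35, SE 0.262, adjusted p = 1.51e-08), the steepest among the 10 genes in that comparison, and the remaining level was at least 22.9-fold above CD38+ control cells.

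SOX9 (ENSG00000125398.6, chromosome 17, 72121020 to 72126420, plus strand), the regulator of cartilage, had 144, 156 and 142 counts in CD90+ control libraries and 39, 26 and 40 with GATA2 overexpression. It was at least 109-fold higher in CD90+ than in CD38+ control cells, and fell 3.05-fold from 2.84 ± 0.0174 to 0.928 ± 0.211 CPM with GATA2 overexpression (adjusted p = 1.45e-05). No library of either CD90+ group overlapped with the other.

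In group D, SOX5 (ENSG00000134532.16, chromosome 12, 23529500 to 24562544, minus strand) followed a similar order of groups. Its counts were 144, 123 and 155 in CD90+ control and 26, 22 and 16 in GATA2 overexpression libraries. The CD90+ control level of 2.73 ± 0.453 CPM was at least 104-fold above CD38+ control cells, and with GATA2 overexpression SOX5 fell 4.81-fold to 0.563 ± 0.120 CPM (adjusted p = 1.48e-06).

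SOX6 (ENSG00000110693.17, chromosome 11, 15966449 to 16739591, minus strand) had counts in all groups. It was at 1.36, 1.07 and 1.28 CPM in CD38+ control, 5.54, 4.57 and 4.33 CPM in CD90+ control and 1.81, 1.59 and 2.31 CPM with GATA2 overexpression, without overlap. SOX6 rose 3.89-fold from CD38+ to CD90+ control cells (adjusted p = 5.97e-08) and fell 2.53-fold with GATA2 overexpression (adjusted p = 4.33e-06). Its excess in GATA2 overexpression over CD38+ control cells was 1.54-fold (adjusted p = 0.00968), a call lost without GATA2 overexpression replicate 3 (adjusted p = 0.0566). C11orf58, an abundant gene on the opposite strand with 219 bases of exon in common, moved the other way in both steps. It was 2.09-fold lower in CD90+ than in CD38+ control cells and 1.63-fold higher with GATA2 overexpression than in CD90+ control. In CD38+ control cells C11orf58 had 61902 counts and SOX6 had 142. Use of strand in the counting is not given, so whether the SOX6 counts there include reads of C11orf58 was not tested.

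**Figure D3:**
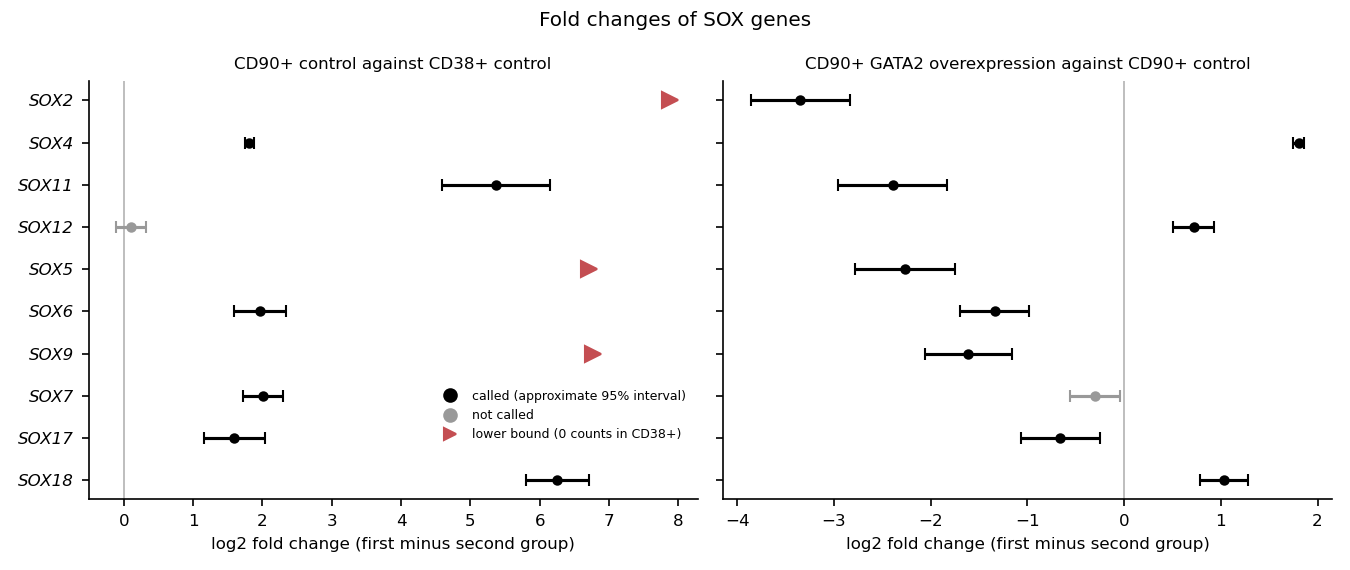
Log2 fold changes (x axis) of the 10 SOX genes (y axis) for CD90+ control against CD38+ control cells (left) and for GATA2 overexpression against control within CD90+ cells (right). Points with bars are estimates with approximate 95% intervals, black where called and grey where not; red arrows are lower bounds for SOX2, SOX5 and SOX9, which had 0 counts in CD38+ cells. On the right, only SOX4, SOX12 and SOX18 lie above 0.

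To compare genes with each other, levels were divided by the merged exon length of each gene in GENCODE 29. Per kilobase, SOX4 led the 10 genes in every group, at 6.74 ± 0.306, 23.7 ± 0.133 and 82.8 ± 2.15 CPM per kb in CD38+ control, CD90+ control and GATA2 overexpression cells. The next of the 10 was SOX12 in CD38+ control cells, at 1.92 ± 0.147 CPM per kb (SOX15, outside the 10, was at 5.53 CPM per kb there), but SOX18 in the CD90+ groups, at 5.47 ± 0.0665 and 11.2 ± 1.51 CPM per kb. Among the 10 in CD90+ control cells, SOX2, SOX7 and SOX12 followed at 2.44 ± 0.253, 2.09 ± 0.207 and 2.07 ± 0.298 CPM per kb. Neighbours in this order overlapped, and SOX15 stood above these 3 at 4.81 ± 0.328 CPM per kb. SOX5 and SOX6 were lowest there, at 0.261 ± 0.0434 and 0.245 ± 0.0326 CPM per kb, also overlapping. SOX6 has many alternative exons, and its merged length of 19636 bases lowers its value per kilobase.

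The summed level of the 10 genes was 9.67 ± 0.531 CPM per kb in CD38+ control, 38.5 ± 0.534 for CD90+ control and 100.4 ± 3.39 with GATA2 overexpression. SOX4 made up 69.7 ± 0.761%, 61.4 ± 0.742% and 82.4 ± 0.987% of this sum. In counts not divided by length, its share of the 10 genes was 75.4 ± 0.880%, 73.5 ± 0.414% and 90.9 ± 0.363%. SOX15, outside the 10, was at 5.53, 4.81 and 4.22 CPM per kb in the same order of groups. All these shares therefore hold for the 10 genes only, and the order of the control groups may differ over all SOX genes. SOX18 went from 0.733 ± 0.563% in CD38+ control to 14.2 ± 0.1003% in CD90+ control and 11.1 ± 1.19% with GATA2 overexpression, although its own level was highest in the last group. SOX12 held 19.8 ± 0.667% in CD38+ control cells and 5.36 ± 0.741% in CD90+ control cells, although its level was not called different between them. SOX2 made up 6.34 ± 0.631% in CD90+ control and 0.240 ± 0.114% in GATA2 overexpression cells. The SOX4 share did not overlap between any 2 groups, with an exact two-sided permutation p of 0.1, the smallest that 3 against 3 allows.

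**Figure D4:**
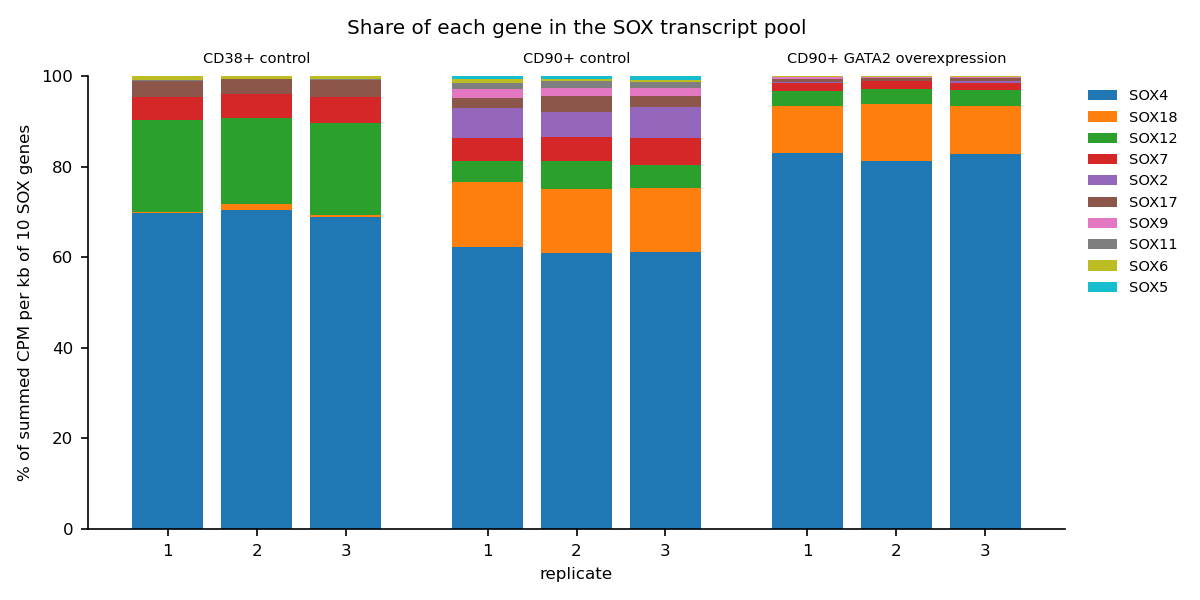
Share of each SOX gene (y axis, percent of the summed CPM per kilobase of the 10 genes) in each of the 9 libraries (x axis, replicate within group). Colours are genes. SOX4 takes 61.4% on average in CD90+ control and 82.4% in GATA2 overexpression libraries, SOX12 is the second block in CD38+ control, and SOX18 is the second block in both CD90+ groups.

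Of 9 further SOX genes, 8 were in the table and 4 passed the filter. SOX8 of group E rose 8.27-fold from CD38+ to CD90+ control cells, from 0.260 ± 0.0882 to 2.18 ± 0.278 CPM, and was at 2.82 ± 0.749 CPM with GATA2 overexpression, which was not called (adjusted p = 0.138). SOX3, the relative of SOX2 in group B, had 0 counts in all CD38+ control libraries, 37, 33 and 30 in those of CD90+ control and 0, 3 and 4 with GATA2 overexpression. It was at least 24.6-fold higher in CD90+ than in CD38+ control cells and fell 9.95-fold with GATA2 overexpression (adjusted p = 0.000291). SOX13 of group D was at 12.2 ± 0.966 and 12.3 ± 0.643 CPM in the control groups, not called (adjusted p = 0.838), and rose 1.37-fold to 16.9 ± 0.682 CPM with GATA2 overexpression. SOX15 was at 8.52 ± 0.704, 7.42 ± 0.505 and 6.51 ± 0.153 CPM in CD38+ control, CD90+ control and GATA2 overexpression cells, and was called between the first and the last of these (adjusted p = 0.00470), but in neither comparison with CD90+ control (adjusted p = 0.110 and 0.135). SOX1, SOX14, SOX21 and SOX30 had at most 36 counts in any group and were not tested.

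The SOX genes were set beside marker lists of the cells in which they are best known. Some list genes near 0 in CD38+ control, such as OTX2 (0 CPM) and HAPLN1 (0.0167 CPM), passed the filter through the CD90+ groups. Against CD38+ control cells such genes could only be called higher, so the filter fixed part of those counts in advance. The counts below are to be read against all tested genes, of which 41.1% were called higher and 39.3% lower in CD90+ against CD38+ control cells, and 38.0% higher and 39.6% lower with GATA2 overexpression within CD90+ cells. In CD90+ against CD38+ control cells, 9 of 10 mesenchymal genes were called higher and 1 was not called, and with GATA2 overexpression 9 were lower than in CD90+ control and 1 was not called. Their summed level was 15.6 to 16.3 CPM in CD38+ control, 1092 to 1111 CPM in CD90+ control and 262 to 278 CPM in GATA2 overexpression libraries. The collagen gene COL3A1 had log2 fold changes of 8.06 and -2.32 in the 2 comparisons. Cartilage genes were called higher in 8 of 10 and lower in 2, then higher in 1 and lower in 9, with summed levels of 109 to 113, 134 to 136 and 132 to 138 CPM. Most of the CD38+ control sum came from COL9A2 and RUNX2, at 55.5 and 52.3 CPM. COL2A1 was at 0.959 CPM there, 69.6 CPM in CD90+ control and 99.6 CPM with GATA2 overexpression, so these sums hold different genes. COL11A2, COL9A1, ACAN and MATN3 were at 0 in CD38+ control cells. COL2A1, the main cartilage collagen gene and a classical SOX9 target, had log2 fold changes of 6.18 and 0.52, so it rose with GATA2 overexpression while SOX9 and SOX5 fell. It was the only cartilage gene called higher there, and COL11A1 fell by 2.60 on the log2 scale. RUNX2, a bone regulator, had log2 fold changes of -2.99 and -1.92. A link of these genes to SOX9 was not tested.

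Neural genes were called higher in 9 of 10 cases, with 1 not called, in CD90+ against CD38+ control cells, and higher in 1 and lower in 7 with GATA2 overexpression. They summed to 3.23 to 3.53, 39.0 to 42.5 and 17.0 to 17.8 CPM in the 3 groups, and NEUROD1, ZIC1 and OTX2 were at 0 in CD38+ control cells. PAX6, which encodes an eye and neural regulator, fell 2.08 on the log2 scale with GATA2 overexpression, and TEAD2 rose by 1.08. Pluripotency genes were called higher in 7 of 8, with 1 not called, then higher in 2 and lower in 5, with sums of 28.6 to 31.3, 130 to 135 and 204 to 211 CPM. POU5F1, the partner of SOX2 in pluripotent cells, was at 0 in CD38+ control and in GATA2 overexpression cells. LIN28A had log2 fold changes of 7.17 and -0.76, and DNMT3B 1.78 and 1.26. DNMT3B stood at 15.4, 52.7 and 126 CPM in CD38+ control, CD90+ control and GATA2 overexpression cells, a large part of each pluripotency sum. Whether cells of these kinds account for SOX2, SOX3, SOX5, SOX9 or SOX11 was not tested.

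Endothelial genes, where group F acts, were called higher in 14 of 20 and lower in 3 in CD90+ against CD38+ control cells, and higher in 8 and lower in 11 with GATA2 overexpression, where 38.0% of all tested genes were higher and 39.6% lower. Their sum was 837.8 to 868.2, 1128 to 1141 and 1386 to 1461 CPM, and VCAM1 and EMCN were at 0 in CD38+ control cells. KDR, the VEGF receptor gene, had log2 fold changes of 4.61 and -0.91, and MEF2C, a partner of SOX18, rose by 1.77 in the first comparison, in which NOTCH1 fell by 1.961 and PECAM1 fell by 0.81. With GATA2 overexpression ESAM rose by 1.43, FLI1 by 1.003, and LYVE1 fell by 3.90. Whether endothelial cells account for the group F values was not tested. Endoderm genes were called higher in 10 of 12 and lower in 2, then higher in 1 and lower in 9, with sums of 28.98 to 31.9, 392 to 399 and 143 to 150 CPM. CER1 was at 0 in CD38+ control and GATA2 overexpression cells and EOMES in CD90+ control cells, while TTR had 6.55 and -1.71. HNF4A, a liver and gut regulator, fell by 2.74 in the first comparison.

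Erythroid genes, the setting of SOX6, were called higher in 13 of 15 and lower in 2 in CD90+ against CD38+ control cells, and higher in 5 and lower in 8 with GATA2 overexpression, beside the same 38.0% and 39.6% of all genes. Their sum was 498 to 505, 1009 to 1035 and 950 to 1026 CPM, with AHSP at 0 in CD38+ control cells. In the first comparison HBZ rose by 5.03 and ALAS2 by 2.64 on the log2 scale, while GATA1 fell by 1.49 and ZBTB7A fell by 0.49. HBE1, an embryonic globin gene of the kind that SOX6 is known to repress, fell by 1.13 with GATA2 overexpression, in which SOX6 also fell, and GATA1 and GFI1B rose by 1.98 and 1.63. Blood genes were called higher in 5 of 10 and lower in 4, beside 41.1% and 39.3% of all genes, then higher in 7 and lower in 1, with sums of 1326 to 1406, 1157 to 1188 and 2048 to 2057 CPM. In the first comparison CD34 rose by 3.01 and LMO2 by 1.14 on the log2 scale, while SPN fell by 1.28 and RUNX1 fell by 0.84. With GATA2 overexpression SPN rose by 1.88 and MYB by 1.81, and PTPRC, the gene of the pan-leukocyte antigen CD45, fell by 1.69. Over all tested genes the median log2 fold changes were 0.03 and -0.04, against 3.68 and -0.998 for the 10 SOX genes. The 3.68 takes in SOX2, SOX5, SOX9, SOX11 and SOX18, which passed the filter through the CD90+ groups alone. SOX2, SOX5 and SOX9 enter it as fitted folds against 0 counts, so it is no measure of the family as a whole.

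**Figure D5:**
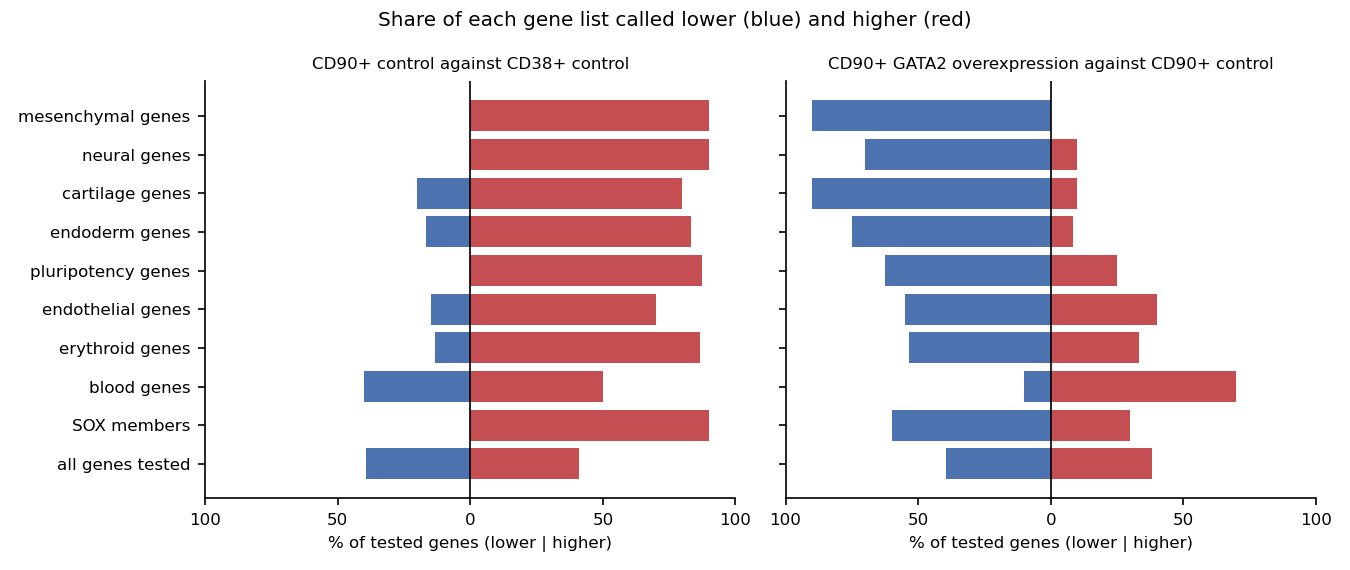
Percent of tested genes (x axis) called lower (blue, leftward) and higher (red, rightward) in each gene list (y axis), for CD90+ control against CD38+ control cells (left) and GATA2 overexpression against control within CD90+ cells (right). Mesenchymal, neural and cartilage genes are mostly red on the left and blue on the right, blood genes are mostly red on the right, and the SOX genes have 9 of 10 red on the left and 3 red and 6 blue on the right. Genes that passed the filter through the CD90+ groups alone could only be red on the left.

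The nearest profiles over the 9 libraries were found for each SOX gene by Euclidean distance of centred log2(CPM + 0.5) values, among genes averaging at least 5 CPM. For SOX4 they were CPXM1 (distance 0.34) and HPDL (0.45), CPXM1 standing at 27.6, 113 and 339 CPM in CD38+ control, CD90+ control and GATA2 overexpression cells. For SOX18 they were MMRN1 (0.48) and PF4 (0.55), both known from megakaryocytes and platelets, with MMRN1 at 4.20, 73.9 and 146 CPM. SOX12 was nearest to MUTYH (0.22) and CERS6 (0.25). SOX7 lay nearest to ZEB1 (0.29) and ADCK1 (0.30), and SOX17 to PEPD and TSNARE1 (0.41 each). SOX9 had DAB2 (0.29) and ALAS2 (0.40), SOX6 had ADCY3 (0.40) and FAM114A1 (0.41), and SOX5 had IFIT1 (0.38) and GATM (0.49). SOX11 had GATM (0.61) and TMEM119 (0.65), and SOX2 had HSPA6 (0.73) and LAMB1 (0.84), the largest distances of the set. With only 3 groups, closeness of this kind reflects the order and spacing of 3 means.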

How the data were processed

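The authors deposited raw counts per gene for 9 libraries, not corrected for depth. HISAT2, featureCounts and build hg38 are named per the submitters' processing notes; no source used here states their versions, the annotation or whether strand was counted. Groups followed the labels' titles. Replicates of a group differed beyond sampling noise (chi-square per degree of freedom 3.96 to 7.84).

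Counts were fitted with edgeR 4.0.16 in R 4.3.3: TMM factors, filterByExpr (minimum count 10, total 15), 1 mean per group from all 9 libraries, no block, the quasi-likelihood test and Benjamini-Hochberg adjustment over 16232 genes. Standard errors were obtained from the log2 fold change and F. Against 0 counts, folds are bounds from 3 counts over the group. These bounds and floors take in no error beyond counting, and reads without molecular identifiers can repeat a molecule. Alternatives included RLE factors, library size only, other filters, DESeq2 1.42.0, the 2 groups alone, a replicate block and leaving out each library. The procedure was tested on simulated data in which few genes changed, as many upward as downward. In the real data most genes were called, so the simulation does not test the scaling.

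Positions and exon lengths are from GENCODE 29 (GRCh38), start-site windows from RefSeq (GRCh38.p14). The SOX genes and the marker lists were chosen with earlier results of these data known. All 10 SOX genes were named, other SOX genes with at least 10 counts in all, from the marker lists up to 2 genes with the lowest adjusted p in each direction, besides those at 0, and for each SOX gene the 2 nearest profiles. NRSN2-AS1, PINX1 and C11orf58 were named after their overlap with a SOX gene was seen. List symbols SOX10, NANOG, FGF4 and CNMD were not analysed here.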

Additional observations from a re-analysis of the deposited data

How the results depend on the processing

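Over 16 alternatives, 9 of which left out a library, the directions and calls of the SOX genes held except as follows. Scaling by library size only lowered the genes called lower in CD90+ against CD38+ control cells from 6377 to 3851. By construction it moves fold changes by about the ratio of the TMM factors, but fitted folds against 0 counts moved less. In that comparison the fitted log2 fold change of SOX4 went from 1.81 to 2.22, and that of SOX2 from 11.03 to 11.24. SOX12 in CD90+ against CD38+ control cells ranged from -0.0104 (without CD90+ control replicate 2, adjusted p = 0.935) to 0.199 (without CD90+ control replicate 1) on the log2 scale when a library was left out, and was 0.52 with library size only, when all 10 SOX genes were called higher. SOX7 within CD90+ cells was called lower with RLE factors (log2 -0.35), library size only (-0.55), at least 1 CPM in 3 libraries (-0.40), DESeq2 (-0.35), the 2 groups alone (-0.31) and without CD90+ control replicate 1 (-0.36). SOX17 within CD90+ cells was -0.44 without CD90+ control replicate 2, and SOX6 in GATA2 overexpression against CD38+ control cells was 0.46 without GATA2 overexpression replicate 3, neither of them called; the cause was not tested. Leaving out a library gave 9 higher SOX genes in CD90+ against CD38+ control cells in each case, 3 higher and 5 to 7 lower within CD90+ cells, and 9 to 10 higher in GATA2 overexpression against CD38+ control. Same-numbered libraries of different groups did not deviate together (correlations -0.05 to 0.02 over 9 pairs). With 3 libraries a group, this cannot exclude that the numbers pair the samples. A fit with the replicate block called 9 SOX genes higher in CD90+ against CD38+ control cells and 3 higher and 6 lower within CD90+ cells, with 6582 and 6307 genes called higher and lower in the first comparison. Fitted folds of SOX2, SOX5 and SOX9 against CD38+ control moved by over 1.5 times with DESeq2.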

Other observations

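Transcripts named for their position at SOX genes were also in the table, and were looked at after the SOX values were seen. SOX21-AS1, a non-coding transcript, had 0 counts in CD38+ control, 38, 24 and 32 in CD90+ control and 9, 8 and 6 in GATA2 overexpression libraries. It was at least 23.3-fold higher in CD90+ than in CD38+ control cells and fell 2.96-fold with GATA2 overexpression (edgeR adjusted p = 0.00693). SOX21 itself, a member of group B, had 4, 0 and 0, then 4, 11 and 7, then 2, 2 and 0 counts in the same order of groups and was not tested.

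SOX2-OT, within whose span SOX2 lies on the same strand, was at 0.158 ± 0.0948 CPM in CD38+ control and 0.422 ± 0.193 CPM in CD90+ control cells (SD, n = 3), a 2.65-fold rise (edgeR adjusted p = 0.0316). With GATA2 overexpression it was at 0.257 ± 0.113 CPM, which was not called against CD90+ control (adjusted p = 0.229), and the libraries overlapped. SOX9-AS1, on the strand opposite to SOX9, had 0 counts in CD38+ control, 3, 7 and 7 in CD90+ control and 0, 2 and 2 in GATA2 overexpression libraries and was not tested.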
